A study of Homo sapiens with 11 samples.

Results

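The 42 genes described here act in the Fanconi anaemia pathway, in homologous recombination, in the DNA damage checkpoint and, for MSH6 and PMS2, in mismatch repair. They were picked out by symbol from a list of names, by a rule with no threshold on measured values, although the list itself was drawn up with earlier results of these data known. All 42 were listed among the 14458 genes of the knockdown table, and 39 among the 11062 genes of the overexpression table, which does not list RAD54B, RBBP8 and ATRIP. RNA-seq had been made from ARP1, a human myeloma line in long-term culture that secretes IgA with kappa light chains. In the knockdown arm, cells with an shRNA against PHF19 (n = 3) were set against cells with a scramble control (n = 3). In the overexpression arm, cells that carry the PHF19 reading frame in a PCDH lentiviral plasmid (n = 2) were set against cells with the empty PCDH vector (n = 3). PHF19 is an accessory subunit of the Polycomb repressive complex that methylates histone H3. The labels give 1 cell line, no promoter for the plasmid and no hairpin sequence. The treatment text of the shRNA and scramble samples names only the overexpression virus, so the delivery of the shRNA is not known, and their groups were read from the sample titles. Cells overexpressing PHF19 had been sorted, and the labels do not say whether those with the empty vector were. The replicates are not said to be separate cultures, so p-values measure the spread between these libraries, which may be technical.

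When a replication fork meets a crosslink between the strands of DNA, the Fanconi core complex acts as a ubiquitin ligase for FANCD2 and FANCI, which then recruit nucleases and the recombination machinery. In recombination, broken ends are resected, BRCA2 works with BRCA1, PALB2 and paralogs such as XRCC2 and XRCC3 on the single strand, and the intact copy serves as template. The kinases ATM and ATR sense breaks and stalled forks, and pass the signal to CHEK2, CHEK1 and WEE1, which hold the cell cycle. Myeloma cells are treated with melphalan, a crosslinking drug whose lesions these genes help to repair.

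Abundances are of FPKM type, that is, scaled for gene length and sequencing depth. The headers name no unit, and read depth is unknown. Each arm has its own table, normalised separately, so every comparison stays within a table. Listed values summed to 498485 and 502349 in overexpression libraries, and to 425155 to 426112 in empty vector libraries. Genes listed at 0 numbered 762 and 797, against 944 to 961. Column names of these groups end in F and in S. Any such difference between libraries cannot be told apart from the overexpression. A fold change is the difference of mean log2(value + 1), and a gene was called when the Benjamini-Hochberg adjusted p of limma, over all genes tested in its table, was under 0.05. PHF19 itself averaged 95.3 ± 17.5 in shRNA libraries and 129 ± 20.3 in scramble libraries (SD, n = 3 each, limma adjusted p = 0.147, and 0.0445 with the replicate number as a block). In overexpression libraries it averaged 220 ± 9.63 (n = 2), against 115 ± 4.12 (n = 3) in empty vector libraries (adjusted p = 0.0438). Listed plasma cell markers, such as SDC1 and XBP1 (10 of 11 symbols in the knockdown table and 9 of 11 in the overexpression table), summed to 1446 to 1869 in shRNA and 1818 to 2035 in scramble libraries, and to 4358 to 11528 in overexpression and 2538 to 3542 in empty vector libraries. The symbols JCHAIN, in the knockdown table, and IGJ, in the overexpression table, name the same gene. Listed T cell markers summed to at most 1.09 in any library of the knockdown table, and none is in the overexpression table. Sums of listed B cell, myeloid, epithelial and fibroblast markers reached at most 30.2 in any library. Their part in the results was not tested. In bulk RNA, fewer cells of a type and less RNA per cell cannot be told apart.

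In the knockdown arm none of the 42 genes was called by limma, while 4.24% of the 10900 genes tested (462) were called higher and 1.28% (139) lower. After quantile normalisation those counts were 377 and 206, and again no member was called. At an unadjusted p under 0.05 stood 4 of them, MSH6, ATRIP, RAD1 and EXO1, all lower in shRNA libraries, which is 9.52% of the members, beside 24.1% of all genes tested. Fold changes were above 0 for 20 members and below 0 for 22 (14 and 28 after quantile normalisation), with a median of -0.00 and a range of -0.49 to 0.34, beside a median of 0.03 over all genes tested. All 42 lay within 0.5 on the log2 scale, as did 87.3% of all genes tested. The 95% intervals of the 42 fold changes ran from -0.83 at the lowest to 0.73 at the highest, so none reached a doubling or a halving on this scale. With the replicate number as a block MSH6 was called lower, beside 8.2% of all genes higher and 3.68% lower.

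Few of the genes had groups that did not overlap. FANCL and RAD17 were higher in every shRNA library than in any scramble library, 2 of 42, beside 18.9% of all genes. MSH6, ATRIP, RAD9A and PARP1 were lower in every shRNA library, 4 of 42, beside 13.0% of all genes. In the authors' deposited table of knockdown p-values, 26 of the 42 genes had a p under 0.05, which is 61.9%, beside 61.2% of all genes listed, from a test that is not named.

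The libraries of the knockdown arm differed among themselves for these genes. In shRNA replicate 1, 35 of the 42 lay below the scramble mean, with a median of -0.34 on the log2 scale. In shRNA replicates 2 and 3 the medians were 0.15 and 0.13, with 12 and 15 genes below the scramble mean. Scramble replicate 1 was the low one of its group, with a median of -0.15 and 33 genes below the mean, against 0.04 and 0.11 in scramble replicates 2 and 3. Over all genes listed above 0 in every library the 6 library medians lay between -0.06 and 0.07, so the low position of shRNA replicate 1 was seen in these genes and not in the median of the table. Without shRNA replicate 1 the median fold change of the 42 genes was 0.14, and again none was called.

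**Figure D1:**
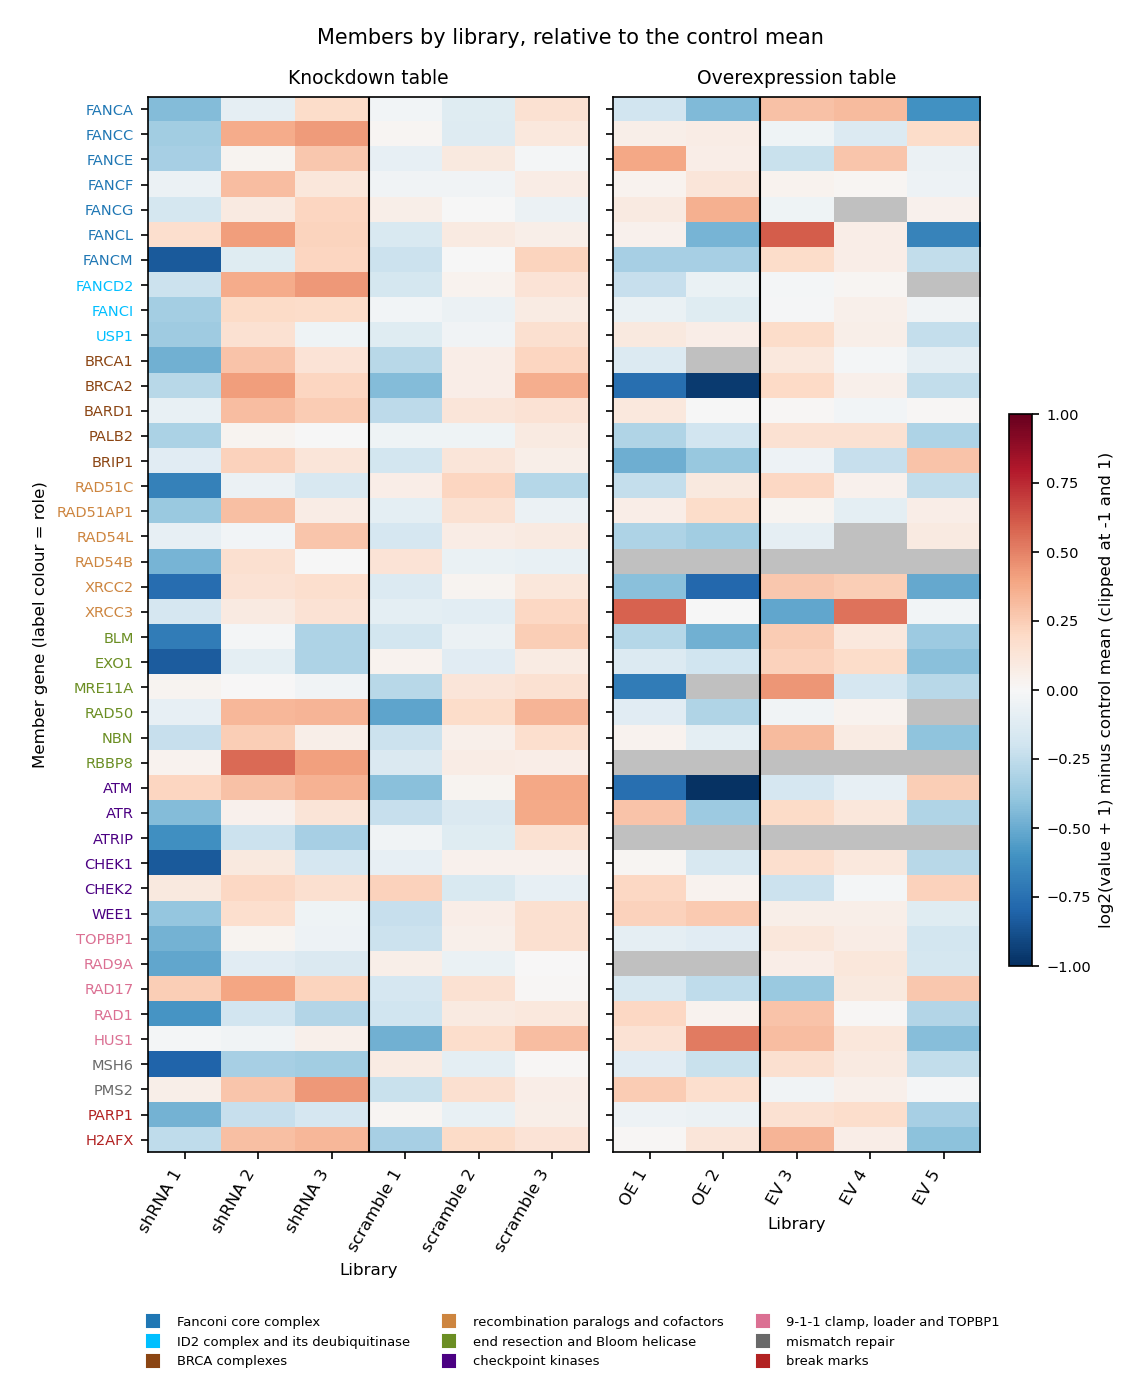
Heat map of log2(value + 1) minus the control mean (colour, clipped at -1 and 1) for the 42 genes (down the page, by role) in each library, with shRNA left of scramble and overexpression left of empty vector. Grey marks a gene listed at 0 or not in the table, and zeros were left out of the control mean. The column of shRNA replicate 1 is mostly blue, with 35 of 42 genes below the scramble mean, while shRNA replicates 2 and 3 hold 12 and 15.

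Genes that replicate DNA were lowest in the same library. Of 28 listed S phase genes, such as the MCM helicase subunits and PCNA, all 28 had a fold change below 0, with a median of -0.31, and 1 was called, CDC6, which loads the helicase onto origins (24.8 ± 4.69 in shRNA and 39.1 ± 0.777 in scramble libraries, n = 3 each, log2 fold change -0.65, limma adjusted p = 0.0354). Over all genes tested 1.28% were called lower. With the block 3 of the 28 were called lower, beside 3.68% of all genes tested. For 14 of the 28 every shRNA library was below every scramble library, beside 13.0% of all genes. Against the scramble mean the median of the 28 was -0.73 in shRNA replicate 1, -0.12 in replicate 2 and -0.16 in replicate 3. For 21 listed G2 and M phase genes it was -0.56, 0.06 and 0.03. The part of cell cycle phase in the values of the repair genes was not tested.

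All 39 genes listed for overexpression were tested. RAD9A was called lower and none was called higher, beside 0.302% of 10279 genes lower and 0.613% higher. The call rests on values listed at 0. With no gene listed at 0, 32 of the 39 remained, with a median fold change of -0.06 and a range of -0.87 to 0.33, beside a median of 0.07 over 8665 genes. After quantile normalisation the medians were -0.21 over the 32 and -0.06 over the 8665, a shift of the whole table. Members minus table was -0.13 without it and -0.15 with it. Groups did not overlap for 5 of 39 genes higher in overexpression libraries, FANCF, FANCG, RAD51AP1, WEE1 and PMS2, beside 23.1% of all genes. They did not overlap for 8 of 39 lower, FANCI, FANCM, BRCA1, BRCA2, BRIP1, MRE11A, ATM and RAD9A, beside 11.1% of all genes. Of these genes FANCG, BRCA1, MRE11A and RAD9A hold values listed at 0. Among genes with no 0 the counts were 4 of 32 higher, beside 2023 of 8665, and 5 of 32 lower, beside 1039 of 8665. In the authors' deposited table of overexpression p-values 8 of the 39 had a p under 0.05, which is 20.5%, beside 12.9% of all genes listed. The 95% intervals of the 32 genes were wide, from -1.46 to 1.35, and lay within 1 on both sides for 23 of them.

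Empty vector replicate 5 was low for these genes, with 25 of 32 below the empty vector mean and a median of -0.25 on the log2 scale. The medians were 0.16 and 0.07 in empty vector replicates 3 and 4, and 0.01 and -0.11 in overexpression replicates 1 and 2. Over all genes above 0 the 3 empty vector libraries lay between -0.01 and 0.01. Without empty vector replicate 5 the median over the 39 genes was -0.19, and with all libraries -0.06.

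**Figure D2:**
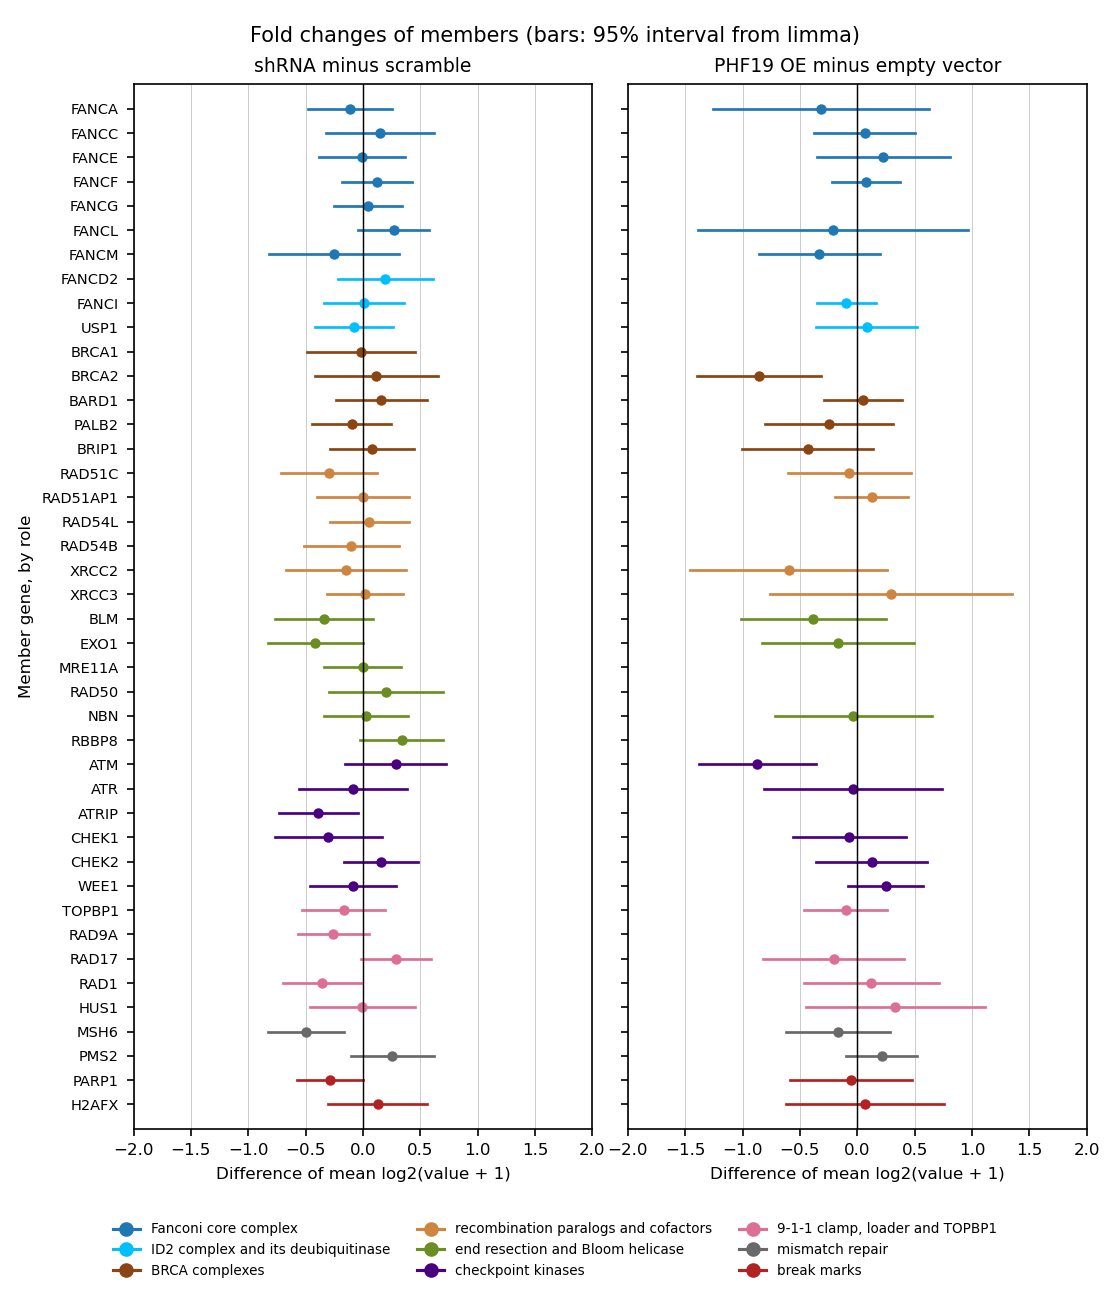
Fold change of each gene with its 95% interval from limma (points and bars, log2 scale, coloured by role), shRNA minus scramble on the left and overexpression minus empty vector on the right. Genes listed at 0 in a library of the overexpression table, and the 3 it does not list, have no point there. In the knockdown arm every point lies between -0.49 and 0.34, and in the overexpression arm ATM (-0.87) and BRCA2 (-0.86) lie lowest.

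The 2 arms share no libraries, and both list 32 of the genes with no 0. Of these, 12 were lower and 8 higher in both shRNA and overexpression libraries than in their controls, 5 were lower in shRNA and higher in overexpression libraries, and 7 the reverse. Across these 32 genes the fold changes of the arms had a Pearson correlation of -0.01 and a Spearman correlation of 0.13, as a description over genes that share libraries. Mean levels in the 2 control groups had a Pearson correlation of 0.95 over the same genes.

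ARP1 cells held transcripts of every one of the 42 genes, at very different levels. In scramble libraries PARP1, which builds poly(ADP-ribose) at breaks, stood highest at 257 ± 12.5 (SD, n = 3), the 98.0 percentile of all genes listed. H2AFX, the histone variant phosphorylated around breaks, followed at 185 ± 35.2, and TOPBP1 (38.7 ± 5.19) and FANCI (37.6 ± 1.99) came next. TOPBP1 and FANCI did not differ beyond their spread. The lowest were BRIP1 at 2.54 ± 0.380 and FANCM at 3.03 ± 0.622, both helicases. The coefficient of variation among scramble libraries was 11.8% in the median, from 4.11% to 33.2%.

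Promoters of many repair genes are known targets of E2F factors, which switch on genes of DNA synthesis, and the letters of E2F sites are shown here because 8 of the genes carry them. Promoter windows of 250 bases before to 50 bases after a start site came from RefSeq (GRCh38.p14) and matched 37 of the 42 genes by symbol. FANCI, NBN, RAD54B, HUS1 and WEE1 were not matched. The letters searched were TTTCCCGC, TTTGGCGC, TTTGCCGC and TTTCGCGC on both strands. They were found in 8 of the 37 genes, 21.6%, beside 3.99% of 27305 genes and 3.31% of 35116 windows. The letters CCAAT, on both strands, were in 21 of 37 genes (56.8%, beside 39.7% of all genes), and TTTGAA, the letters of a cell cycle homology region, in 6 (16.2%, beside 18.2%). Each motif was counted on its own, and matches of different motifs may share bases. A match of letters is a description and does not show a bound site. The 8 windows of 30 bases follow, each read along the strand of its gene, with the matched letters in capitals.
FANCA (chr16:89816801-89816830, minus strand): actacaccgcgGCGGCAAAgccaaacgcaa
FANCC (chr9:95317863-95317892, minus strand): ccggggcttccGCGCGAAAccgggaacact
FANCD2 (chr3:10026424-10026453, plus strand): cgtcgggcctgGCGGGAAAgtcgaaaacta
XRCC2 (chr7:152676102-152676131, minus strand): tggcgttggtgGCGGGAAAgttgagtctct
EXO1 (chr1:241848197-241848226, plus strand): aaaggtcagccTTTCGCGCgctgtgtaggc
TOPBP1 (chr3:133661930-133661959, minus strand): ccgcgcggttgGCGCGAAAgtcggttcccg
MSH6 (chr2:47783137-47783166, plus strand): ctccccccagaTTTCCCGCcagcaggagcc
PMS2 (chr7:6009131-6009160, minus strand): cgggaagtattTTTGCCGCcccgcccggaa

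The first matched base lay 172 bases before the start site in FANCA and in FANCC, 100 before it in PMS2, 7 before it in TOPBP1 and 2 before it in FANCD2. It lay at base 4 after the start in MSH6, at base 5 in EXO1 and at base 22 in XRCC2. These places hold for the start site of the window shown. MSH6 has 4 windows and EXO1 and FANCC 2 each, and in each of these genes only 1 window held the letters. The FANCC window held 2 matches, of which 1 is printed. Fold changes of the 8 genes had a median of -0.13 in the knockdown arm, beside 0.00 over the 29 genes without these letters. After overexpression the medians were -0.17 over 7 genes with the letters and -0.06 over 21 without. Within the 8 the knockdown values ran from -0.49 in MSH6 to 0.26 in PMS2. The part of these letters in the fold changes was not tested.

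The mismatch repair pair held the lowest of the 42 fold changes after knockdown. MSH6, which finds mismatched bases as part of a dimer, had 18.1, 25.4 and 25.1 in shRNA libraries, against 34.3, 30.2 and 32.4 in scramble libraries. Every shRNA library was below every scramble library, and shRNA replicate 1 was the lowest. The means were 22.8 ± 4.10 and 32.3 ± 2.07, which differ by -0.49 on the log2 scale (SE 0.15, limma adjusted p = 0.0826), and the gene passed with the replicate block (adjusted p = 0.0497). Without shRNA replicate 1 the fold change was -0.34. In overexpression libraries MSH6 had 29.1 and 26.9, and in empty vector libraries 35.4, 33.6 and 26.4 (log2 fold change -0.17, SE 0.17, limma adjusted p = 0.733), so the groups overlapped through empty vector replicate 5.

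PMS2, the nicking enzyme of mismatch repair, has close copies in the genome, and its values are uncertain for that reason. It had 8.57, 10.2 and 11.5 in shRNA libraries, against 6.86, 9.28 and 8.62 in scramble libraries, and the groups overlapped (log2 fold change 0.26, SE 0.16, limma adjusted p = 0.361). In overexpression libraries it had 9.87 and 9.25, above 7.89, 8.41 and 8.03 in the empty vector libraries (0.21, SE 0.12, adjusted p = 0.552). The ratio of MSH6 to PMS2, taken after the values were seen, was 2.11, 2.50 and 2.19 in shRNA libraries and 5.00, 3.25 and 3.76 in scramble libraries, with no overlap. It was 2.95 and 2.91 in overexpression libraries, also below 4.49, 3.99 and 3.29 in empty vector libraries.

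Upstream of the MSH6 start site whose window holds the E2F letters lies a stretch rich in G and C. It is set beside that of RAD17, which like FANCL lay on the opposite side with no overlap and carries none of the E2F letters in its window. Both are 150 bases from RefSeq (GRCh38.p14), ending at the base before the start site. Capitals mark CCAAT letters on the other strand, 47 to 43 bases upstream in MSH6, and the printed RAD17 stretch holds no CCAAT letters, though its whole window does. The E2F letters of MSH6 lie after the start site, so neither printed stretch holds any. G and C make up 81.3% of the MSH6 stretch and 62.7% of the RAD17 stretch.
MSH6 (chr2:47782995-47783144, plus strand): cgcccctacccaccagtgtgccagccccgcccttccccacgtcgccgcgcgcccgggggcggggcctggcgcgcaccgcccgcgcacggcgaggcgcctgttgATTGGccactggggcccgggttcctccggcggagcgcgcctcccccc
RAD17 (chr5:69369668-69369817, plus strand): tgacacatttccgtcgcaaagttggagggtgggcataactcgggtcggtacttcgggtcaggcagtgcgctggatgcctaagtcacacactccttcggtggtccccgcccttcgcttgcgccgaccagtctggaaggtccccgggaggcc

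The clamp of RAD9A, RAD1 and HUS1, loaded by RAD17, is the platform from which TOPBP1 activates ATR. RAD17, the loader, had 14.1, 15.8 and 13.9 in shRNA libraries, all above 10.4, 13.2 and 11.9 in scramble libraries (14.6 ± 1.04 and 11.8 ± 1.44, log2 fold change 0.29, SE 0.14, limma adjusted p = 0.234). RAD9A had 17.5, 23.4 and 22.9 in shRNA libraries, all below 26.5, 24.3 and 25.5 in scramble libraries (-0.26, SE 0.14, adjusted p = 0.287). RAD1 had 10.8, 14.5 and 13.4 in shRNA libraries, against 14.5, 17.8 and 18.1 in scramble libraries (-0.36, SE 0.15, adjusted p = 0.184). The RAD1 groups met through shRNA replicate 2, at 14.49, and scramble replicate 1, at 14.45. HUS1, the third subunit, had 4.75, 4.69 and 5.04 in shRNA libraries, inside the scramble range of 3.19 to 6.22. TOPBP1 averaged 34.5 ± 6.29 in shRNA and 38.7 ± 5.19 in scramble libraries, with groups that overlapped. The ratio of RAD17 to RAD1, also taken after the values were seen, was 1.31, 1.09 and 1.03 in shRNA libraries, above 0.716, 0.742 and 0.657 in scramble libraries. It was 1.59 and 1.69 in overexpression libraries, inside the span of 1.28, 2.24 and 3.22 in empty vector libraries. Ratios of RAD9A and RAD1 to HUS1, and of NBN and MRE11A to RAD50, were also taken. So were ATRIP to ATR, BARD1 to BRCA1, PALB2 to BRCA2 and CHEK1 to CHEK2. All of these overlapped after knockdown. After overexpression PALB2 to BRCA2 did not overlap, at 1.64 and 2.19, against 1.05, 1.18 and 1.04 in empty vector libraries. RAD1 to HUS1 and CHEK1 to CHEK2 overlapped in that arm. The other ratios there include a gene listed at 0 or, for ATRIP, not listed.

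In the overexpression table RAD9A was listed at 0 in both overexpression libraries and at 19.6, 20.3 and 16.4 in the empty vector libraries (limma adjusted p = 0.00164). No fold is given, because the table lists zeros for genes that every cell uses, such as XRCC6, a subunit of the Ku end-binding complex, at 0 in 1 overexpression library. With genes listed at 0 left out no gene of that table passed, PHF19 included. Of the loader and the rest of the clamp, RAD17 had 15.0 and 13.9 in overexpression libraries, inside the empty vector range of 12.8 to 20.5. HUS1 had 5.80 and 7.83, against 6.62, 5.67 and 3.58 in empty vector libraries (log2 fold change 0.33, SE 0.29, adjusted p = 0.698), and these groups overlapped.

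**Figure D3:**
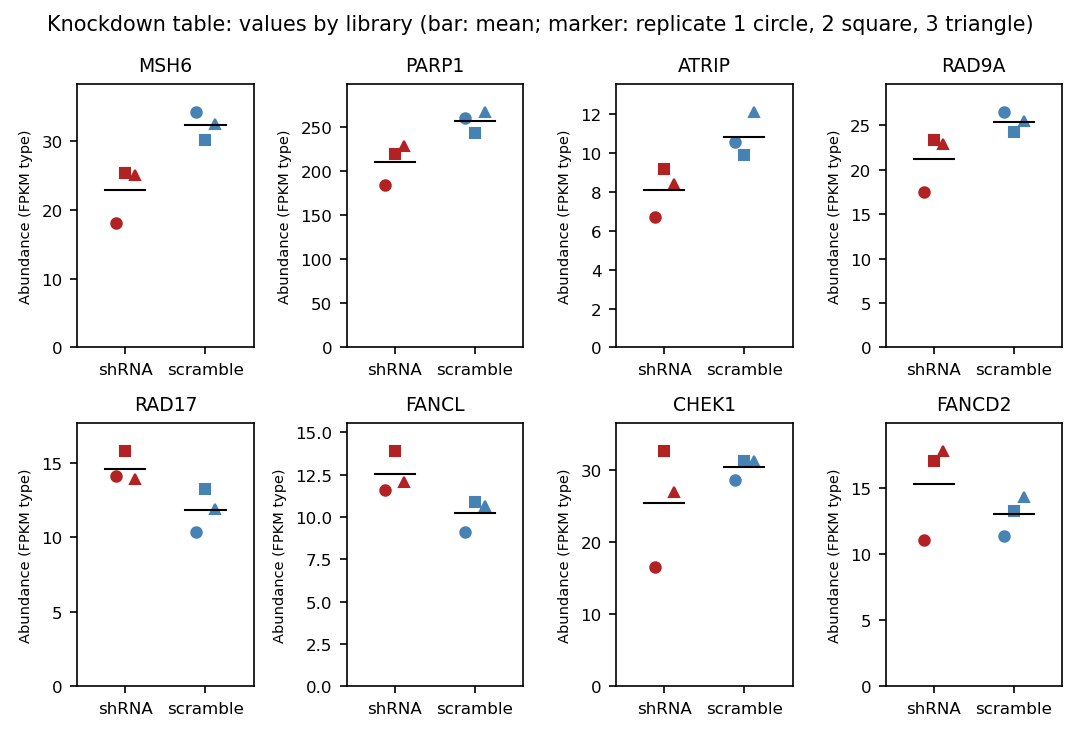
Abundance (FPKM type, axes from 0) of 8 genes in the 3 shRNA libraries (left) and 3 scramble libraries (right) of the knockdown table, with the mean as a bar and circles, squares and triangles for replicates 1, 2 and 3. MSH6, PARP1, ATRIP and RAD9A are lower and RAD17 and FANCL higher in every shRNA library, while CHEK1 and FANCD2 overlap, with shRNA replicate 1 lowest in both.

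Among the checkpoint kinases and their partners, ATRIP was furthest from its control. ATRIP, which carries ATR to single-stranded DNA, had 6.70, 9.18 and 8.39 in shRNA libraries, all below 10.5, 9.88 and 12.1 in scramble libraries. Its means were 8.09 ± 1.27 and 10.8 ± 1.15 (log2 fold change -0.39, SE 0.16, limma adjusted p = 0.161). ATR itself had 3.12, 4.73 and 5.07 in shRNA libraries, inside the span of 3.73, 4.02 and 6.23 in scramble libraries but for shRNA replicate 1 (-0.09, SE 0.21, adjusted p = 0.836). ATM, the kinase that answers to breaks, had 6.88, 7.32 and 7.61 in shRNA libraries, against 4.08, 5.91 and 7.89 in scramble libraries (0.29, SE 0.20, adjusted p = 0.413). The scramble spread of ATM covered all of its shRNA values.

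CHEK1, the kinase that ATR activates, had 16.6, 32.7 and 26.9 in shRNA libraries, against 28.7, 31.3 and 31.3 in scramble libraries. shRNA replicate 1 was far below the rest, and replicate 2 was the highest of all 6. The log2 fold change was -0.30 (SE 0.21, limma adjusted p = 0.410) with it and -0.03 without it. WEE1, which places the inhibiting phosphate on CDK1, had 15.6, 23.5 and 20.04 in shRNA libraries, against 17.5, 21.8 and 23.3 in scramble libraries (-0.09, SE 0.17, adjusted p = 0.792), and turned to 0.06 without shRNA replicate 1. CHEK2, the target of ATM, which also has close copies in the genome, averaged 11.3 ± 0.467 in shRNA and 10.1 ± 1.62 in scramble libraries, with overlap.

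ATM had the lowest fold change of the genes with no 0 after overexpression. It had 6.81 and 5.64 in overexpression libraries, against 10.7, 11.4 and 14.7 in empty vector libraries. Both overexpression values lay well below the 3 others. The means were 6.22 ± 0.826 (n = 2) and 12.3 ± 2.09 (n = 3), with a fold change of -0.87 on the log2 scale (SE 0.19, 95% interval -1.38 to -0.36) that did not pass over all genes (limma adjusted p = 0.296). WEE1 had 14.5 and 14.9 in overexpression libraries, above 12.8, 12.8 and 11.2 in empty vector libraries (0.25, SE 0.12, adjusted p = 0.525). ATR had 6.23 and 3.60 in overexpression libraries, against 5.76, 5.40 and 3.80 in empty vector libraries (-0.04, SE 0.29, adjusted p = 0.964), and CHEK1 26.5 and 23.4, against 29.6, 28.2 and 21.5 (-0.07, SE 0.18, adjusted p = 0.914). Both overlapped.

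The 5 genes of the BRCA complexes did not separate in the knockdown arm. BRCA1, the ubiquitin ligase that starts recombination with BARD1, had 10.4, 18.4 and 16.5 in shRNA libraries, against 12.1, 15.7 and 17.5 in scramble libraries (log2 fold change -0.02, SE 0.21, limma adjusted p = 0.966). Both groups ran low in replicate 1, and without shRNA replicate 1 the fold change was 0.21. BRCA2 (4.44 ± 1.28 and 4.04 ± 1.34 in shRNA and scramble libraries), BARD1 (5.08 ± 0.838 and 4.44 ± 0.823), PALB2 (4.83 ± 0.742 and 5.21 ± 0.329) and BRIP1 (2.74 ± 0.448 and 2.54 ± 0.380) all overlapped, with fold changes of -0.10 to 0.16.

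After overexpression BRCA2, a core factor of recombination, was low in both libraries: 2.74 and 2.25, against 6.24, 5.55 and 4.32 in empty vector libraries. No overexpression value reached the lowest empty vector value. The means were 2.50 ± 0.346 (n = 2) and 5.37 ± 0.971 (n = 3), and the fold change was -0.86 on the log2 scale (SE 0.20, 95% interval -1.40 to -0.32, limma adjusted p = 0.316). BRIP1, the helicase bound to BRCA1, had 2.44 and 2.71 in overexpression libraries, below 3.65, 3.12 and 4.88 in empty vector libraries (-0.43, SE 0.21, adjusted p = 0.523). PALB2, the bridge between BRCA1 and BRCA2, had 4.51 and 4.93, against 6.53, 6.54 and 4.48 (-0.25, SE 0.21, adjusted p = 0.688), with overlap at empty vector replicate 5. BARD1 stayed near 5.68 ± 0.353 in overexpression and 5.45 ± 0.109 in empty vector libraries. BRCA1 was listed at 14.5 and 0 in overexpression libraries and at 17.3, 15.8 and 15.0 in empty vector libraries.

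ATM and BRCA2 also have the longest transcripts of the group, at 13147 and 11986 bases for the longest coding GENCODE transcript, and in the overexpression arm fold changes moved with length over the whole table. Over 8413 genes with no 0 the Spearman correlation of fold change with length was -0.30, across genes that are not independent replicates, against 0.09 over 10817 genes of the knockdown arm. With all genes cut by length into 5 equal groups, shortest to longest, the median overexpression fold change was 0.18, 0.13, 0.10, 0.03 and -0.10. The 7 members in the longest group, FANCM, BRCA2, BRIP1, ATM, ATR, TOPBP1 and MSH6, had a median of -0.33. With the length trend removed, a step chosen after seeing the data, ATM stood at -0.57 and BRCA2 at -0.59. The part of transcript length in the remaining values was not tested.

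**Figure D4:**
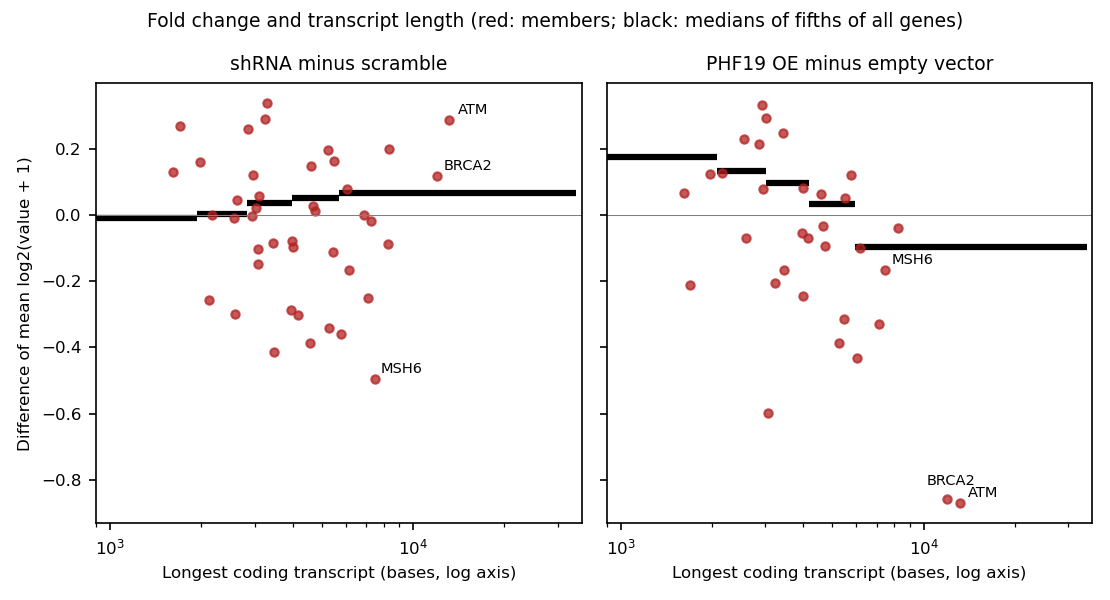
Fold change (log2 scale) against the length of the longest coding transcript (bases, log axis), with members above 0 in every library as red points and the medians of 5 equal groups of all genes as black lines. In the overexpression arm on the right the black lines step down from 0.18 to -0.10 with length, and ATM and BRCA2 lie at the long, low end, while in the knockdown arm on the left they lie above 0.

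The Fanconi core complex is a ubiquitin ligase whose catalytic subunit is FANCL. FANCL had 11.6, 13.9 and 12.1 in shRNA libraries, all above 9.08, 10.9 and 10.7 in scramble libraries (12.5 ± 1.23 and 10.2 ± 0.987, log2 fold change 0.27, SE 0.14, limma adjusted p = 0.267). The other 6 subunits overlapped, with fold changes from -0.25 for FANCM, which anchors the complex to DNA, to 0.15 for FANCC. FANCM had 1.23, 2.67 and 3.65 in shRNA libraries, against 2.44, 2.98 and 3.68 in scramble libraries, and its shRNA replicate 1 was the lowest of the 6. Without shRNA replicate 1 the fold change was 0.05 for FANCM and 0.40 for FANCC. FANCA, at 20.7 ± 4.56 in shRNA and 22.2 ± 2.26 in scramble libraries, and FANCG, at 21.9 ± 3.08 and 21.1 ± 0.867, were the most abundant subunits and did not differ beyond their spread.

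In the overexpression table FANCM had 2.09 and 2.08 in overexpression libraries, below 3.40, 3.06 and 2.27 in empty vector libraries (log2 fold change -0.33, SE 0.20, limma adjusted p = 0.571). FANCE had 12.7 and 10.0, against 7.99, 11.7 and 9.07 (0.23, SE 0.21, adjusted p = 0.718), with overlap. FANCL showed how far a control could spread, at 28.4, 19.3 and 11.2 in empty vector libraries, with 18.9 and 13.0 in overexpression libraries. FANCG was listed at 0 in empty vector replicate 4 and at 16.2 and 17.2 in the others, with 17.8 and 21.6 in overexpression libraries.

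FANCD2 and FANCI form the complex that the core ligase marks, and USP1 takes the mark off again. FANCD2, which has pseudogene copies and is uncertain for that reason, had 11.1, 17.1 and 17.8 in shRNA libraries, against 11.4, 13.3 and 14.4 in scramble libraries. Its shRNA replicate 1 was the lowest of the 6, and the other shRNA libraries were the highest. The log2 fold change was 0.20 (SE 0.18, limma adjusted p = 0.552) and without shRNA replicate 1 0.40 (adjusted p = 0.127). FANCI had 29.5, 43.1 and 42.8 in shRNA libraries, again with replicate 1 the lowest and the other 2 the highest, against 36.9, 36.1 and 39.9 in scramble libraries. The ratio of FANCI to FANCD2 was 2.67, 2.53 and 2.40 in shRNA libraries, all below 3.24, 2.71 and 2.77 in scramble libraries, by a gap that is narrow beside the scramble SD of 0.288. USP1 averaged 26.8 ± 4.82 and 28.2 ± 2.94.

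After overexpression FANCI had 45.9 and 44.2, just below 47.7, 49.97 and 46.9 in empty vector libraries (log2 fold change -0.09, SE 0.095, 95% interval -0.35 to 0.16, limma adjusted p = 0.734). The step is small beside the interval. FANCD2 had 17.3 and 19.5 in overexpression libraries, and 20.2, 20.7 and a listed 0 in empty vector libraries. USP1 averaged 28.5 ± 0.422 (n = 2) and 27.0 ± 4.07 (n = 3).

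Of the recombination paralogs and cofactors, none separated by group after knockdown. RAD51C, one of the paralogs, had 16.7, 26.1 and 24.3 in shRNA libraries, against 28.6, 31.8 and 22.2 in scramble libraries (log2 fold change -0.30, SE 0.19, limma adjusted p = 0.363), and -0.11 without shRNA replicate 1. XRCC2 had 5.06 in shRNA replicate 1 and 8.33 to 10.5 in the other 5 libraries. RAD51AP1, RAD54L, RAD54B and XRCC3, which aid strand invasion or the paralog complexes, had fold changes of -0.10 to 0.06.

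RAD51AP1 had 16.2 and 17.6 in overexpression libraries, against 15.7, 14.3 and 16.1 in empty vector libraries (log2 fold change 0.13, SE 0.12, limma adjusted p = 0.718). The groups stood apart by a narrow gap, at 16.19 and 16.14, and the sign turned with quantile normalisation (-0.01) and with the length trend removed (-0.03). XRCC2 had 6.85 and 5.07 in overexpression libraries, against 11.6, 11.4 and 6.31 in empty vector libraries (-0.60, SE 0.32, adjusted p = 0.547), with overlap at empty vector replicate 5. RAD54L was listed at 0 in empty vector replicate 4, at 9.84 and 11.2 in the others, and at 8.30 and 8.06 in overexpression libraries.

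End resection is started by RBBP8 with the complex of MRE11A, RAD50 and NBN, and carried on by EXO1. These genes pointed both ways after knockdown. EXO1, the nuclease, had 9.19, 15.9 and 13.6 in shRNA libraries, against 17.6, 15.8 and 18.2 in scramble libraries (log2 fold change -0.41, SE 0.18, limma adjusted p = 0.204), and -0.21 without shRNA replicate 1. RBBP8 had 10.5, 15.6 and 13.9 in shRNA libraries, against 9.16, 10.8 and 10.7 in scramble libraries (0.34, SE 0.16, adjusted p = 0.237), and 0.49 without shRNA replicate 1 (adjusted p = 0.0772). For RBBP8 it was shRNA replicate 1 that fell inside the scramble range, and for EXO1 shRNA replicate 2 that reached it. BLM, the helicase that dissolves crossed strands, had 7.15, 12.0 and 9.68, against 10.6, 11.7 and 14.6 (-0.34, SE 0.19, adjusted p = 0.306). RAD50, NBN and MRE11A had fold changes of 0.20, 0.03 and -0.00.

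In the overexpression table BLM had 11.0 and 9.43 in overexpression libraries, against 16.4, 14.7 and 10.3 in empty vector libraries (log2 fold change -0.39, SE 0.23, limma adjusted p = 0.577). It overlapped through empty vector replicate 5, as EXO1 did at 18.3 and 17.5, against 24.0, 23.1 and 14.9. MRE11A was listed at 11.6 and 0 in overexpression libraries and at 26.9, 17.3 and 16.0 in empty vector libraries. RAD50 was listed at 18.5 and 16.1 in overexpression libraries and at 19.6, 20.7 and 0 in empty vector libraries.

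Of the genes that mark a break, PARP1 had 185, 219 and 229 in shRNA libraries, all below 260, 243 and 267 in scramble libraries. The means were 211 ± 23.1 and 257 ± 12.5, which differ by -0.29 on the log2 scale (SE 0.13, limma adjusted p = 0.208). H2AFX had 153, 225 and 230 in shRNA libraries, against 144, 209 and 201 in scramble libraries. Replicate 1 was the lowest of each group, each shRNA library was above the scramble library of its number, and the groups overlapped (log2 fold change 0.13, limma adjusted p = 0.722, and 0.433 with the block). In overexpression libraries PARP1 had 219.5 and 219.0, inside the empty vector range of 181 to 258, and H2AFX had 86.1 and 93.4, inside 64.1 to 109.

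**Figure D5:**
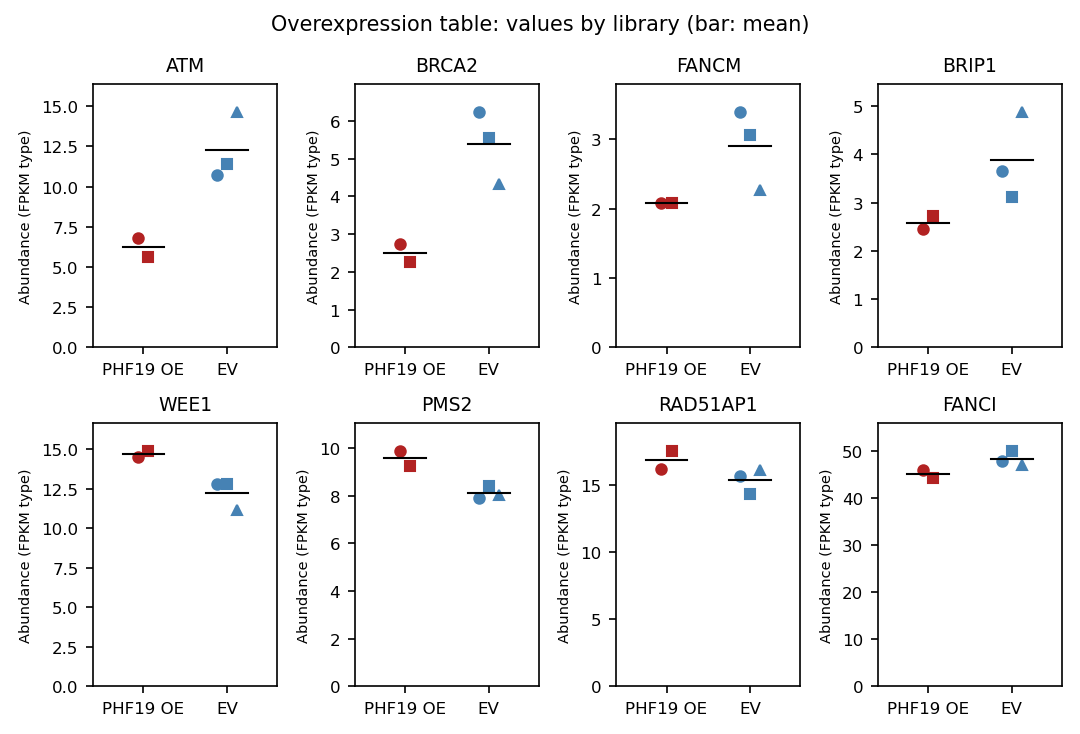
Abundance (FPKM type, axes from 0) of 8 genes in the 2 overexpression libraries (left) and 3 empty vector libraries (right) of the overexpression table, with the mean as a bar. ATM, BRCA2, FANCM, BRIP1 and FANCI are lower and WEE1, PMS2 and RAD51AP1 higher in both overexpression libraries, with the widest gaps in ATM and BRCA2.

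Over all genes tested after knockdown 5.51% were called in either direction. With the replicate block 8.2% were called higher and 3.68% lower, and 24.1% stood at an unadjusted limma p under 0.05. Of 11 other Fanconi genes 1 was called, ERCC1, part of the nuclease that unhooks crosslinks, which rose to 53.2 ± 7.005 in shRNA libraries, against 35.7 ± 2.94 in scramble libraries (n = 3 each, log2 fold change 0.56, SE 0.13, limma adjusted p = 0.0412). With the replicate block RFWD3, a ubiquitin ligase, was called lower as well, at 25.5 ± 6.01 in shRNA and 34.8 ± 3.08 in scramble libraries (-0.46, adjusted p = 0.146, and 0.0470 with the block). Of 35 other recombination genes none was called by limma, with 6 at an unadjusted p under 0.05. With the replicate block 3 of them were called higher, MUS81 and SLX1A, which are parts of structure-selective nucleases, and RAD52, an annealing protein. SLX1A has a near-identical copy, so its value is uncertain. MUS81 averaged 60.7 ± 7.43 in shRNA and 42.3 ± 3.11 in scramble libraries (0.50, adjusted p = 0.0520, and 0.0183 with the block). The median fold change of these 35 genes was 0.06.

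Of 26 other checkpoint and mediator genes tested after knockdown 20 had a fold change below 0, with a median of -0.16. None was called by limma, with 3 at an unadjusted p under 0.05, beside 24.1% of all genes tested. With the block 2 of the 26 were called lower, beside 3.68% of all genes tested. CLSPN, the adaptor through which ATR reaches CHEK1, averaged 5.85 ± 1.35 in shRNA and 9.36 ± 2.002 in scramble libraries (log2 fold change -0.60, limma adjusted p = 0.109, and 0.0192 with the block). CDC25A, the phosphatase that CHEK1 restrains, averaged 12.0 ± 3.64 and 18.9 ± 2.14 (-0.65, limma adjusted p = 0.0949, and 0.0818 with the block). It was not called in either fit. Against the scramble mean the median of the list was -0.43 in shRNA replicate 1, and -0.02 and -0.08 in replicates 2 and 3.

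After overexpression none of 13 other Fanconi genes and none of 23 other checkpoint genes was called by limma, with 0 and 1 at an unadjusted p under 0.05. At that p stood 11.5% of all genes tested in this arm, and 0.613% were called higher. RAD52 was called among 29 other recombination genes, listed at 0 in all 3 empty vector libraries with a mean of 11.5 ± 0.754 (n = 2) in overexpression libraries, and no fold is given. POLQ, the polymerase of a backup end-joining route, averaged 4.95 ± 0.182 in overexpression and 7.88 ± 0.442 in empty vector libraries (log2 fold change -0.58, adjusted p = 0.299).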

How the data were processed

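Abundances of ARP1 RNA-seq libraries came in 2 tables that the authors deposited, recorded here as FPKM. No header states the unit, and RPKM or TPM would look alike. TopHat was the aligner and hg19 the build, per the submitters' processing notes. The sources used here name no quantifier, annotation or filter. The tables carry no counts, so no interval for counting error or detection floor was computed. The authors deposited a p-value beside each gene, from a test that is not named. In the knockdown table values were rounded to 2 decimals, and 24 symbols had been turned into dates.

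Tests used log2(value + 1), without added scaling. Genes reaching 1 in at least 3 libraries (knockdown) or 2 libraries (overexpression), the size of the smaller group, were tested with limma-trend and robust variances (limma 3.58.1, R 4.3.3), two-sided, within each table, after a check on simulated data. Levels are means ± SD. Tables and plots used Python 3.11.15, pandas 2.3.3, numpy 2.4.6 and matplotlib 3.10.9. The members and lists were chosen with earlier results of these data known. Fold changes with their test are given for the 14 genes per arm with the smallest p and no 0, and for BRCA1, FANCD2, ATM, ATR, CHEK1 and WEE1. H2AFX after knockdown was added to these. Others are given as values or as fold changes without a test, and genes listed at 0 by library. Of the wider lists, up to 4 genes with the smallest p could be named. PMS2, CHEK2 and FANCD2 have close copies that can share reads, ATRIP overlaps a readthrough transcript with TREX1, and whether counting used strand is not given.

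Both knockdown groups are numbered 1 to 3. Across genes, libraries of equal number deviated together from their group means (r = 0.341, 0.270 and 0.273), and other pairs less so (-0.277 to 0.0936). The numbers were taken to pair the libraries only in the alternative called the replicate block. The reported knockdown test left the libraries unpaired, so its calls and adjusted p-values take no account of the pairing. No label states this pairing, which rests on the data alone. Alternatives were the replicate block, limma without trend, quantile and median-of-ratios scaling, a filter at 5 or none, a pseudocount of 0.1 or 0.5, genes with no 0, library weights, each library left out and, added after seeing the data, removal of the length trend.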

Additional observations from a re-analysis of the deposited data

How the results depend on the processing

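In the knockdown arm the count of members called was 0 in the reported test, 1 with the replicate block (MSH6) and 5 with library weights (MSH6, RAD1, RBBP8, FANCC and FANCD2), and stayed at 0 under every other alternative, each library left out included. Over all genes 601 were called, against 269 with no filter, 3161 with library weights and 1295 with the block, and 54 to 629 with each library left out (54 without scramble replicate 1, 58 without replicate 2 and 164 without replicate 3, and 285 and 180 without shRNA replicates 2 and 3). In the overexpression arm 1 member was called (RAD9A), 0 of 32 without genes listed at 0, where limma had 2 at an unadjusted p under 0.05, 4 with library weights (with ATM, BRCA2 and XRCC2), and 1 to 2 with each library left out (without overexpression replicate 1 BRCA1 was called too, adjusted p = 0.0210, from the 1 overexpression library left, where it is listed at 0 and is assumed to vary like the other group). Over all genes 94 were called there, 36 with the filter at 5, 61 with a pseudocount of 0.1, 1729 with library weights, 0 without genes listed at 0 (1201 of 8665 at an unadjusted p under 0.05), and 107 to 350 with each library left out (350 without empty vector replicate 5, 148 without overexpression replicate 1).

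Directions turned for the following. After knockdown BRCA1 (-0.02) was 0.10 and ATR (-0.09) 0.16 with library weights. With each library left out BRCA1 ran from -0.17 to 0.21, ATR from -0.20 to 0.10 and WEE1 from -0.22 to 0.063. After overexpression RAD51AP1 was -0.0068 with quantile normalisation and -0.034 with the length trend removed, ATR was 0.084 with that trend removed, and FANCD2, whose fitted 1.33 rests on a 0 listed in empty vector replicate 5, was -0.060 with library weights. With each library left out ATR ran from -0.37 to 0.29, CHEK1 from -0.21 to 0.018 and FANCD2 from -0.15 to 2.07. The median fold change of members ran from -0.09 to 0.14 after knockdown (-0.00 as reported) and from -0.21 to 0.03 after overexpression (-0.06 as reported) over all alternatives. The causes were not tested. With 2 or 3 libraries a group and no counts, small differences could not be resolved.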

Other observations

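Other repair routes held a few calls after knockdown. MPG, the glycosylase that removes alkylated bases, rose to 112 ± 6.58 in shRNA libraries, against 73.1 ± 12.1 in scramble libraries (n = 3 each, log2 fold change 0.62, SE 0.14, limma adjusted p = 0.0332), and was the only one of 19 base excision repair genes called, with 4 higher and 1 lower under the replicate block. Over all genes tested 4.24% were called higher and 1.28% lower, and with the block 8.2% and 3.68%. MUTYH, the adenine glycosylase, averaged 18.6 ± 2.51 and 12.3 ± 1.68 (adjusted p = 0.0606, and 0.0252 with the block), and TDG, the thymine glycosylase, 20.1 ± 4.14 and 29.6 ± 1.04 (adjusted p = 0.0662, and 0.0246 with the block). None of 18 nucleotide excision repair genes and none of 12 end-joining genes was called by limma, with 3 and 4 at an unadjusted p under 0.05. At that p stood 24.1% of all genes tested. XRCC5 and XRCC6, the Ku subunits, averaged 120 ± 11.9 and 366 ± 42.4 in shRNA libraries, against 156 ± 0.783 and 464 ± 15.2 in scramble libraries (adjusted p = 0.0956 and 0.149).

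Of 15 listed p53 targets tested after knockdown 1 was called higher and 1 lower, and 4 higher and 1 lower with the replicate block, TP53I3 (adjusted p = 0.0212) and FDXR (0.0383) among them. The shares over all genes tested were 4.24% higher and 1.28% lower, and 8.2% and 3.68% with the block. CCNG1, the cyclin G of the p53 feedback loop, rose to 233 ± 36.1 in shRNA libraries, against 96.0 ± 5.82 in scramble libraries (log2 fold change 1.26, SE 0.14, limma adjusted p = 0.00305). TRIAP1, a small inhibitor of apoptosis, fell to 24.4 ± 2.89, against 37.4 ± 4.58 (-0.60, SE 0.14, adjusted p = 0.0397). In the overexpression arm PRKDC, the catalytic kinase of end joining, averaged 28.9 ± 1.02 in overexpression (n = 2) and 54.8 ± 10.8 in empty vector libraries (n = 3, log2 fold change -0.88, limma adjusted p = 0.315), and MKI67, a proliferation marker, 17.9 ± 1.04 and 36.3 ± 2.75 (-0.98, adjusted p = 0.0817). MKI67 did not stand for its list. Of 20 listed G2 and M phase genes tested in that arm, 13 had a fold change above 0 and 7 below. Their median was 0.02, beside 0.09 over all genes tested, and none was called. Of 25 listed S phase genes 13 were above 0 and 12 below, with a median of 0.02 and none called. The part of transcript length in the PRKDC and MKI67 values was not tested.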
